A study of Mus musculus with 30 samples.

Results

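The livers described here came from male mice that lacked the nuclear receptors CAR and PXR and were given cyproterone acetate or corn oil by oral gavage. They were chosen by sample title, as the 3 arrays of CARko/PXRko mice given cyproterone acetate at 160 mg/kg daily and the 3 arrays of CARko/PXRko mice given corn oil, the vehicle. These are 6 of the 30 arrays of the study, which also holds wild type, hCAR/hPXR (humanised receptors) and PXRko mice and a second compound, 1,4-dichlorobenzene (DCB) at 600 mg/kg. The strains are labelled C57BL, and the protocol gives a C57BL/6J background. Both groups compared here are labelled as 3 days of treatment, and the livers were taken a day after it ended. The cyproterone acetate arrays of wild type and hCAR/hPXR mice are labelled 6 days although the protocol gives 3, and their corn oil controls are labelled 3 days. In any comparison with those genotypes, genotype and labelled duration cannot be told apart. The design states 5 mice per group, and the labels do not say that each of the 3 arrays was a separate mouse. The p-values therefore reflect only how far the arrays within a group spread, taken over all 30 arrays. That spread may be in part technical. Each sample was whole liver RNA, in which fewer cells of a type and less RNA per cell cannot be told apart.

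CAR (gene Nr1i3) and PXR (gene Nr1i2) are nuclear receptors of the hepatocyte that bind drugs, steroids and other foreign compounds and switch on genes for their oxidation, conjugation and export. Cytochromes P450 of the Cyp2b, Cyp2c and Cyp3a families are their textbook targets. Cyproterone acetate is a synthetic steroid that blocks the androgen receptor, activates the progesterone receptor, has weak glucocorticoid activity and activates rodent PXR. The comparison shows which liver genes differ after this steroid when both receptors are missing.

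Values are log2 RMA signals, where RMA subtracts background, puts the arrays on a common distribution and combines a probe set's probes into 1 value. Differences are cyproterone acetate minus corn oil on that log2 scale ± SE, with 3 arrays in each group. The SE and p of each gene rest on a spread shared over all 30 arrays in 10 groups, and not on these 6 arrays alone. Each gene is represented by the single-gene probe set with the highest mean over the 30 arrays, and levels of different genes are not compared. A gene is said to have risen or fallen when the limma adjusted p was under 0.05. The 6 arrays had medians between 5.39 and 5.44 and maxima between 15.22 and 15.32 log2 units, and their number limits the precision.

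The receptor genes were at the level of the knockout in all 6 livers. Nr1i3 read 6.51, 6.11 and 6.10 in the corn oil arrays and 6.86, 6.81 and 6.76 in the cyproterone acetate arrays, against 9.32, 9.37 and 10.09 in wild type corn oil arrays. Nr1i2 read 4.29, 4.70 and 4.76 with corn oil and 4.66, 4.73 and 4.59 with cyproterone acetate, against 7.79, 6.75 and 8.04 in wild type. None of the 6 arrays came near the wild type range for either gene. Under corn oil the knockout was lower than wild type, by a difference of -3.35 ± 0.21 for Nr1i3 (limma, adjusted p = 5.7e-10) and of -2.94 ± 0.23 for Nr1i2 (limma, adjusted p = 3.49e-08). These were 2 of the 5 genes called between the genotypes under corn oil (0.0391%, with 0.0156% higher and 0.0234% lower). Within the knockout, neither gene passed the test between treatments, with differences of 0.57 for Nr1i3 (limma, adjusted p = 0.12) and 0.08 for Nr1i2 (limma, adjusted p = 0.866). Defining hepatocyte genes such as Alb, serum albumin, and Hnf4a, a hepatocyte transcription factor, differed by 0.01 and 0.08, and none of the 8 hepatocyte markers tested was called.

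A single control array, corn oil replicate 2, carried transcripts of skeletal muscle. Over 22 muscle genes, among them Acta1, Ckm and Mylpf, its median stood 6.18 log2 units above wild type corn oil livers, whereas the other 5 arrays stood 0.02 to 0.14 above. That array was also high for brown fat genes, by a median of 0.98, and for stellate cell and matrix genes, by 0.79. It correlated with the other corn oil arrays at 0.95 and 0.945, over the 12795 genes tested, while the remaining pair correlated at 0.992. Because of this, values without it are given below where it moved a call or a list's count. Cyproterone acetate replicate 3 stood apart in another way, with a median of -2.53 for 20 genes of cholesterol synthesis and uptake. These features of single arrays are plotted by gene list for each array.

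**Figure D1:**
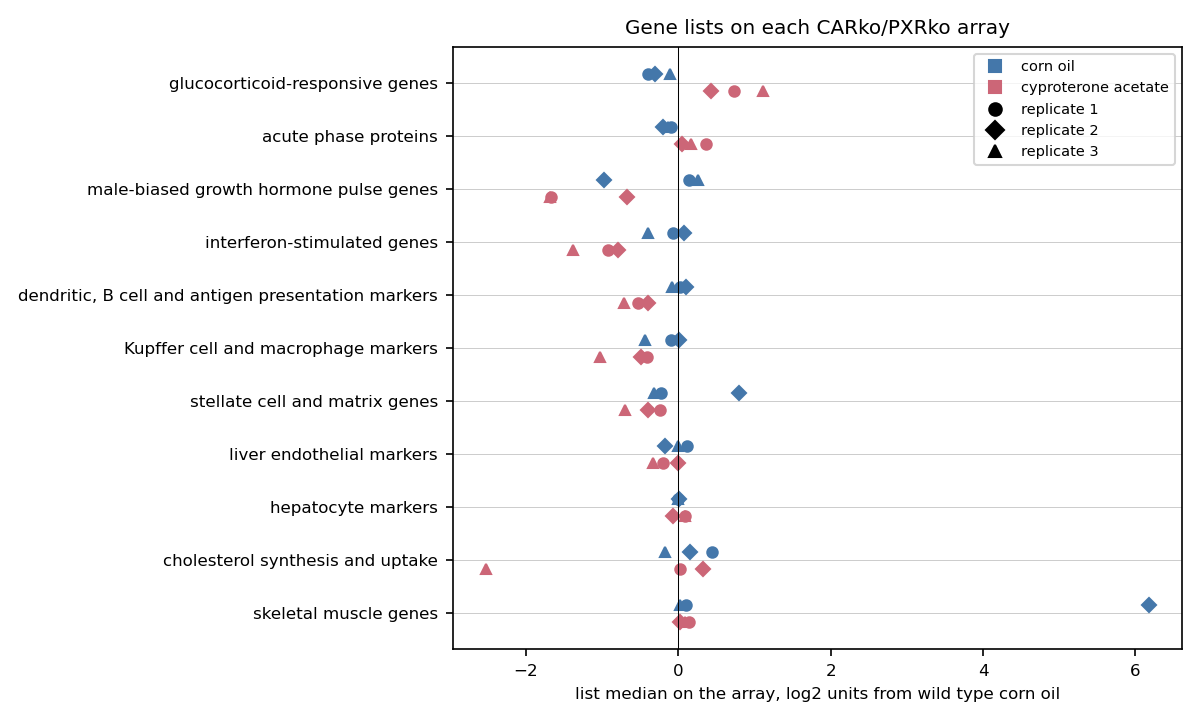
Median of each gene list on each of the 6 CARko/PXRko arrays, in log2 units from the wild type corn oil median of the same genes (x axis), with lists on the y axis. Blue symbols are corn oil arrays and red symbols cyproterone acetate arrays, and the shape gives the replicate number. Muscle genes are high only on corn oil replicate 2 among these 6 arrays (6.18), and cholesterol genes are low only on cyproterone acetate replicate 3 (-2.53).

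Cyproterone acetate changed 702 of 12795 genes, 5.49% of those tested, with 279 higher (2.18%) and 423 lower (3.31%). The counts of called members in every gene list below are to be read beside these shares. The 3 treated arrays lay wholly outside the control range for 681 of the 702, against 23.7% of all genes tested. Changes of over 1 log2 unit were seen in 306 called genes, and over 2 units in 67, of which 31 rose and 36 fell. Another single-gene probe set above the array median on at least 3 arrays was available for 337 called genes. In 297 of these, all such probe sets differed in the same direction, and in the rest they did not. Without corn oil replicate 2 the count was 464 (3.63%), 184 higher (1.44%) and 280 lower (2.19%), and 389 genes were called both ways, which is 55.4% of the larger set and 83.8% of the smaller. That fit kept DCB replicates 2 and 3 of the same genotype, which also carried muscle transcripts and enter the shared estimate of spread. The count without corn oil replicate 2 is therefore not a count free of muscle transcripts. With DCB replicates 2 and 3 left out as well, the count was 624, with 250 higher and 374 lower. Of these, 468 were also called with all arrays. That fit keeps a single DCB array, in a group not compared here. Without corn oil replicate 1 the count was 282, without corn oil replicate 3 it was 368, and without cyproterone acetate replicate 1 it was 429. In a fit of the 2 groups alone, in place of all 30 arrays, 136 genes were called. The calls that held in all 6 fits with 1 array left out numbered 194, of which 91 rose and 103 fell. Among the 24 largest changes named here, 22 held in all 6 fits. The plot of effects with and without the muscle array shows the muscle genes leaving the diagonal and the called genes lying near it.

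**Figure D2:**
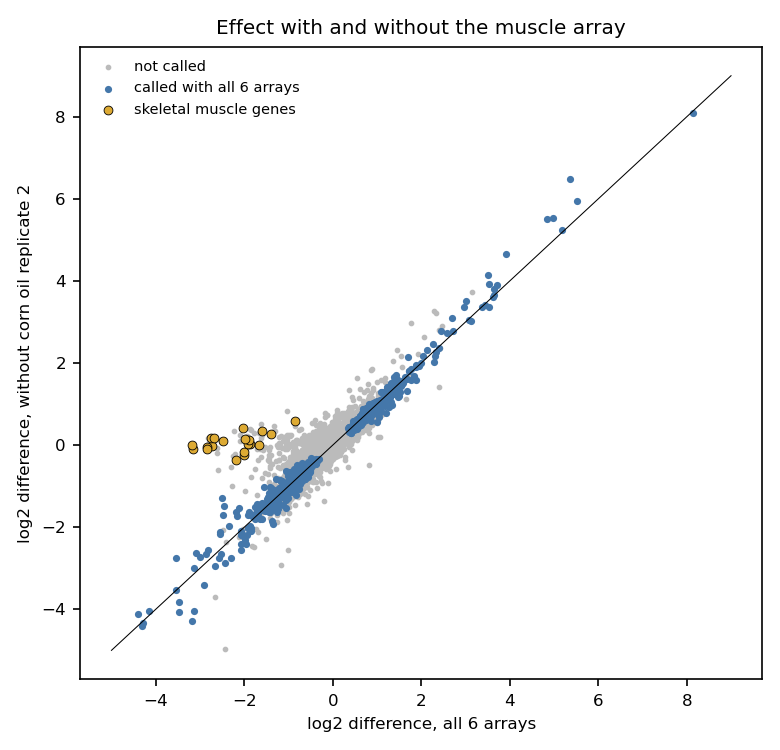
Log2 difference of each of 12795 genes, cyproterone acetate minus corn oil, with all 6 arrays (x axis) and without corn oil replicate 2 (y axis). Blue points are the 702 genes called with all 6 arrays, grey points are not called, gold points are 20 tested skeletal muscle genes, and the line marks equal values. The muscle genes have a median of -2.02 with all arrays and 0.02 without that array, and none of them was called in either fit.

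The largest rise was in Sult1e1, the estrogen sulfotransferase, which inactivates estrogens by adding sulfate. It read 3.88, 3.99 and 4.31 in the corn oil arrays and 12.82, 13.04 and 10.73 in the cyproterone acetate arrays. The controls were all near the bottom of the scale and the treated arrays all in its upper part, with replicate 3 the lowest. The controls lay below the array medians, so no fold is given, and the difference was 8.13 ± 0.69 on the log2 scale (limma, adjusted p = 1.07e-07). Cyp17a1, the steroid 17-hydroxylase and lyase of androgen synthesis, read 7.82, 9.07 and 6.88 with corn oil and 13.11, 12.95 and 12.63 with cyproterone acetate. The groups did not overlap and the treated arrays were close together, giving a difference of 4.97 ± 0.69 (limma, adjusted p = 0.000121). Both calls held with any 1 array left out, with adjusted p up to 3.7e-06 for Sult1e1 and 0.0019 for Cyp17a1.

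Among 22 steroid hormone metabolizing enzymes tested, 4 rose and 2 fell, with a list median of -0.28 beside -0.01 over all genes tested. With corn oil replicate 2 left out, 3 rose and 3 fell and the median was -0.45. Hsd17b10, a mitochondrial hydroxysteroid dehydrogenase, rose by 1.26 ± 0.26 (limma, adjusted p = 0.00575), and Akr1d1, the 5-beta reductase of steroids and bile acid precursors, by 1.12 (limma, adjusted p = 0.0362). The Akr1d1 call was lost when corn oil replicate 1, 2 or 3 or cyproterone acetate replicate 1 or 2 was left out, with adjusted p of 0.14, 0.0786, 0.0563, 0.0937 and 0.181. Hsd17b6, which converts the androgen metabolite androstanediol back towards dihydrotestosterone, read 10.999, 11.85 and 11.57 with corn oil and 9.35, 8.37 and 8.14 with cyproterone acetate. Every treated array was below every control, and Hsd17b6 fell by 2.85 ± 0.60 (limma, adjusted p = 0.00587). Hsd3b7, an enzyme of bile acid synthesis, fell by 0.75 ± 0.17, a call that was lost without corn oil replicate 1 (limma, adjusted p = 0.0682).

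**Figure D3:**
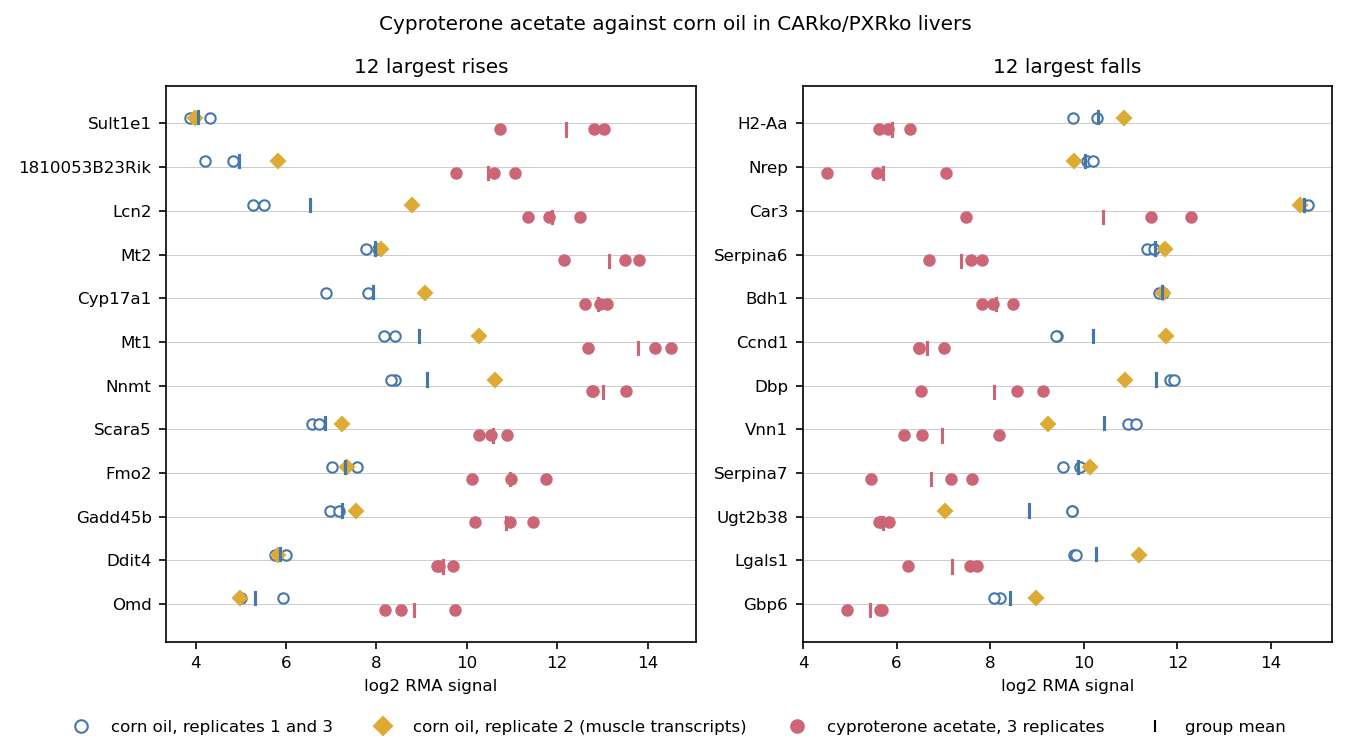
Log2 RMA signal (x axis) on each of the 6 CARko/PXRko arrays for the 12 largest rises (left) and 12 largest falls (right) among called genes with groups that do not overlap. Open blue circles are corn oil replicates 1 and 3, gold diamonds corn oil replicate 2, red circles the 3 cyproterone acetate arrays, and short bars the group means. Corn oil replicate 2 lies apart from the other controls for Lcn2 (8.79), Nnmt (10.63), Ccnd1 (11.75) and Ugt2b38 (7.02).

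The other large rises were mixed in function. Lcn2, lipocalin 2, a siderophore-binding acute phase protein, read 5.52, 8.79 and 5.27 with corn oil and 12.51, 11.35 and 11.82 with cyproterone acetate. The muscle-bearing array was the highest control and still below every treated array. The difference was 5.36 ± 0.78, or 6.49 without that array (limma, adjusted p = 0.000209 and 6.4e-06). Nnmt, nicotinamide N-methyltransferase, rose by 3.90 ± 0.59, and its corn oil replicate 2 was likewise the highest control at 10.63. Fmo2, a flavin monooxygenase, rose by 3.64 ± 0.45, and Gadd45b, a stress and growth arrest gene, by 3.64 ± 0.35. Scara5, a ferritin receptor, rose by 3.72 ± 0.62, and its probe sets ranged from 0.37 to 3.72. Omd, osteomodulin of the extracellular matrix, rose by 3.53 ± 0.52, and 1810053B23Rik, a RIKEN transcript, rose as well, as the plot of the largest changes shows. Each of these calls held in all 6 fits with 1 array left out.

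CAR and PXR target genes did not move together. Of 28 tested, 7 rose and 1 fell, and the list median was 0.06 beside -0.01 over all genes. Without corn oil replicate 2, 6 rose and 2 fell and the median was 0.15. The list has Sult1e1 and Gadd45b in it, which are described above. Cyp2b10, the usual marker of CAR activation, read 5.28, 7.73 and 6.37 in corn oil livers and 10.30, 11.22 and 8.38 in cyproterone acetate livers. The groups did not overlap, although the lowest treated array was within 1 log2 unit of the highest control, which was corn oil replicate 2. The difference was 3.51 ± 0.77 (limma, adjusted p = 0.00812), and 4.14 without corn oil replicate 2. The call was lost without corn oil replicate 1 (limma, adjusted p = 0.0666), without cyproterone acetate replicate 2 (limma, adjusted p = 0.0525) and in the fit of the 2 groups alone (limma, adjusted p = 0.125).

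The remaining members of that list spread widely. Cyp2c39, a retinoic acid and drug hydroxylase, read 6.69, 6.78 and 6.36 with corn oil and 8.59, 8.98 and 7.89 with cyproterone acetate, a rise of 1.87 ± 0.31 with no overlap (limma, adjusted p = 0.000806). Cyp3a13, a member of the Cyp3a family, read 11.04, 11.49 and 11.38 against 12.96, 12.58 and 13.50, a rise of 1.71 ± 0.30 (limma, adjusted p = 0.00123). Both held in every fit with 1 array left out. Cyp3a11, the main PXR-inducible P450 of mouse liver, read 14.65, 14.79 and 14.74 with corn oil and 14.66, 14.77 and 14.62 with cyproterone acetate. Its groups overlapped and the difference was -0.04 ± 0.09 (limma, adjusted p = 0.82), at levels close to the array maximum of about 15, where a rise has little room to show. The Cyp2c55 signal fell instead, from 9.94, 10.02 and 10.11 to 7.79, 8.66 and 7.37, by 2.08 ± 0.51 (limma, adjusted p = 0.0177). That call was lost without corn oil replicate 1 or 3 or cyproterone acetate replicate 1 or 3, with adjusted p of 0.0552, 0.0587, 0.0579 and 0.0546. Targets that were not called include Ces2a, a carboxylesterase (-0.34), Abcc3 and Abcc4, export pumps (-0.61 and -0.23), Ephx1, epoxide hydrolase (-0.13), and Alas1, the first enzyme of heme synthesis (-0.12). The Cyp2b, Cyp2c and Cyp3a families have near-identical members, so part of such a signal can come from a paralog.

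Genes known to respond to glucocorticoids rose most often of the lists examined. Of 24 tested, 10 rose and 0 fell, 20 were higher, and the median difference was 0.80 beside -0.01 over all genes. On the list median per array, the corn oil livers stood at -0.40, -0.30 and -0.12 and the cyproterone acetate livers at 0.73, 0.43 and 1.11, so the groups did not overlap. Without corn oil replicate 2, 8 rose and 0 fell and the median was 0.59. The earlier results of these data were known when the list was drawn up, and it is no independent evidence of its direction.

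Ddit4, an inhibitor of mTORC1 signalling, read 6.01, 5.83 and 5.75 with corn oil and 9.33, 9.39 and 9.70 with cyproterone acetate. Both groups were tight and far apart, and the rise was 3.61 ± 0.25 (limma, adjusted p = 4.33e-09), the smallest adjusted p of the comparison. Fkbp5, a co-chaperone of steroid receptors that is a standard readout of glucocorticoid exposure, read 8.72, 8.65 and 9.22 against 12.20, 11.78 and 11.996. Its rise was 3.13 ± 0.29 with no overlap (limma, adjusted p = 3.88e-07), and both calls held in all 6 fits with 1 array left out. Zbtb16, a zinc finger transcription factor, rose by 2.04 ± 0.34, and Lpin1, a phosphatidate phosphatase, by 1.89 ± 0.37, both in all 6 fits. Cdkn1a, the cell cycle inhibitor p21, rose by 2.69 ± 0.59, a call that was lost without corn oil replicate 1 (limma, adjusted p = 0.0539). Tsc22d3 (GILZ, an anti-inflammatory protein) rose by 1.54 ± 0.37 and Cry1, a clock repressor, by 1.94 ± 0.50, and each call was lost in 4 of the 6 fits, with adjusted p up to 0.078 and 0.094. For Tsc22d3 the arrays left out in those fits were corn oil replicates 1 and 2 and cyproterone acetate replicates 1 and 2, and for Cry1 they were corn oil replicates 1 and 2 and cyproterone acetate replicates 1 and 3. Other members were not called: Per1 differed by 1.09, Tat, tyrosine aminotransferase, by 0.79, and the gluconeogenic genes Pck1 and G6pc by -0.25 and -0.16.

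Metallothioneins, small proteins that bind zinc and copper and respond to metals and to glucocorticoids, rose by over 4 log2 units. Mt1 read 8.41, 10.28 and 8.16 with corn oil and 14.16, 12.68 and 14.53 with cyproterone acetate. Mt2 read 7.77, 8.10 and 8.03 against 13.49, 12.15 and 13.82. Cyproterone acetate replicate 2 was the lowest treated array for both and still above every control. The differences were 4.84 ± 0.80 for Mt1 (limma, adjusted p = 0.000806) and 5.19 ± 0.79 for Mt2 (limma, adjusted p = 0.000314), held in all 6 fits with 1 array left out, and were 5.50 and 5.25 without corn oil replicate 2. None of the other 7 genes of metallothionein and zinc transport tested was called. The 300-base windows around the RefSeq transcript starts of this neighbouring pair, 250 bases before and 50 after, are shown because the pair rose together. Capitals mark matches to the core of the metal response element, TGCACNC or TGCGCNC on either strand, and coordinates are those of GRCm38.p6 on the plus strand.
Mt1, chr8:94178839-94179138: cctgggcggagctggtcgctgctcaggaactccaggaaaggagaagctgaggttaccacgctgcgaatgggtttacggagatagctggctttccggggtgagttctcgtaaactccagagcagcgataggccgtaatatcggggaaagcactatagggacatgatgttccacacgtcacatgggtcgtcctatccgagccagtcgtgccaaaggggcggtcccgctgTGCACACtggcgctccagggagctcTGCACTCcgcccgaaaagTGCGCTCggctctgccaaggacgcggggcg
Mt2, chr8:94172368-94172667: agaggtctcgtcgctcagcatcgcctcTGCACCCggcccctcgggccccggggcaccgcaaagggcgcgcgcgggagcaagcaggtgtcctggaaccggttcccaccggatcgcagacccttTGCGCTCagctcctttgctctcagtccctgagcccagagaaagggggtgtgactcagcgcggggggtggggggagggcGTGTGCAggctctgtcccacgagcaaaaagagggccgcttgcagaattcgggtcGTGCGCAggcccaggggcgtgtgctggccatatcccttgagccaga
The Mt1 window has 3 matches and the Mt2 window 4. At least 1 match was present in 39.1% of the 10290 tested genes with a window, in 38.9% of the 226 genes that rose and in 37.2% of the 341 that fell.

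A second motif was searched because steroid receptors of the glucocorticoid, progesterone and androgen type share one, an imperfect palindrome read here as the half-sites GNACA and TGTNC with any 3 bases between them. It was present in 0.35% of the 10290 tested genes with a window, in 6 of the 226 that rose (2.65%) and in 0 of the 341 that fell. A match describes the letters and not the binding of a receptor. The 6 genes were chosen for the match, and their matches are shown in capitals with up to 20 bases on each side, 5′ to 3′ on the strand of the gene, from RefSeq on GRCm38.p6.
Mt1, chr8:94178975-94179027 (+): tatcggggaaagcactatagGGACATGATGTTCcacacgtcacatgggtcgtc
Acnat2, chr4:49408220-49408272 (-): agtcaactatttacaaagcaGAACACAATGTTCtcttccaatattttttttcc
Serpina3n, chr12:104406610-104406662 (+): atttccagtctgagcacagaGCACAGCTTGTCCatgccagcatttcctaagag
Amy1, chr3:113577934-113577986 (-): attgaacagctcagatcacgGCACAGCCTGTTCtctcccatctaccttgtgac
Slc10a6, chr5:103629534-103629586 (-): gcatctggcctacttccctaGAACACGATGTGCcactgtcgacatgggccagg
Gnmt, chr17:46729116-46729166 (-): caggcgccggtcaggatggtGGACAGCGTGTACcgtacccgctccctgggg
Acnat2, a peroxisomal acyl-CoA amino acid conjugating enzyme, read 6.87, 6.58 and 6.38 with corn oil and 10.28, 10.77 and 8.92 with cyproterone acetate, a rise of 3.38 ± 0.67 (limma, adjusted p = 0.00365). Amy1, salivary-type amylase, which the liver also makes, read 11.76, 11.53 and 12.12 against 13.19, 13.34 and 12.996, a rise of 1.37 ± 0.18 (limma, adjusted p = 6.12e-05). Neither gene's groups overlapped. Slc10a6, a transporter of sulfated steroids, rose by 0.87 ± 0.20, and Gnmt, which uses S-adenosylmethionine to methylate glycine, by 0.61 ± 0.13 (limma, adjusted p = 0.0142 and 0.008). The Slc10a6 call was lost without corn oil replicate 1 (limma, adjusted p = 0.0641) or cyproterone acetate replicate 3 (0.0591).

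Acute phase proteins, which hepatocytes secrete in inflammation, were in part higher. Of 22 tested, 6 rose and 0 fell, with a median of 0.26, and 5 rose without corn oil replicate 2. Lcn2 leads this list too. Orm3, an orosomucoid, read 5.55, 5.78 and 6.29 with corn oil and 8.85, 9.64 and 8.39 with cyproterone acetate, a rise of 3.09 ± 0.51 with no overlap (limma, adjusted p = 0.000721). Serpina3n, a serine protease inhibitor, read 9.06, 9.36 and 9.15 against 11.19, 10.18 and 11.51, a rise of 1.77 ± 0.35 (limma, adjusted p = 0.00353). Apcs, serum amyloid P, rose by 1.00, Orm1 by 0.76 and Hp, haptoglobin, by 0.34, each lost in at least 3 of the 6 fits with 1 array left out, with adjusted p up to 0.0892, 0.0946 and 0.127. The arrays behind those losses were corn oil replicates 1 and 3 and cyproterone acetate replicate 1 for Apcs and Hp, and all arrays but cyproterone acetate replicate 3 for Orm1. The serum amyloid A genes Saa1 and Saa2 differed by 1.36 and 1.54 without passing (limma, adjusted p = 0.49 and 0.42), and the fibrinogen genes Fga, Fgb and Fgg by 0.04 to 0.11. Orosomucoid genes are near-identical copies, so their signals may be shared.

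Serpina6, which encodes corticosteroid-binding globulin, the blood carrier of glucocorticoids, was among the largest falls. It read 11.34, 11.74 and 11.51 with corn oil and 7.60, 6.70 and 7.83 with cyproterone acetate. All treated arrays were more than 3 log2 units below all controls, and Serpina6 fell by 4.15 ± 0.42 (limma, adjusted p = 1.32e-06). Serpina7, thyroxine-binding globulin, the blood carrier of thyroid hormone, read 9.91, 10.14 and 9.55 against 7.16, 7.60 and 5.45, and fell by 3.13 ± 0.67 (limma, adjusted p = 0.00681). Both held in all 6 fits with 1 array left out.

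Other large falls were metabolic or structural. Bdh1, the ketone body enzyme 3-hydroxybutyrate dehydrogenase, read 11.69, 11.70 and 11.60 with corn oil and 8.05, 8.49 and 7.82 with cyproterone acetate. Its controls were within 0.2 log2 units of each other, and it fell by 3.54 ± 0.26 (limma, adjusted p = 7.03e-09). Nrep, a neuronal regeneration protein also made in liver, read 10.06, 9.79 and 10.19 against 5.57, 7.05 and 4.51 and fell by 4.31 ± 0.48 (limma, adjusted p = 5.93e-06). Car3, carbonic anhydrase 3, a very abundant protein of male mouse liver, read 14.69, 14.62 and 14.79 against 11.43, 12.29 and 7.47. Cyproterone acetate replicate 3 was far below the other treated arrays, and Car3 fell by 4.30 ± 0.81 (limma, adjusted p = 0.00223). Muscle also makes Car3, and corn oil replicate 2 was no higher for it than the other controls. All controls were close to the array maximum of about 15, where a higher reading has little room to show. Lgals1, galectin 1, a lectin of stromal and immune cells, fell by 3.09 ± 0.57, with a difference of -2.64 without corn oil replicate 2, its highest control at 11.18. Ccnd1, cyclin D1, which drives entry into the cell cycle, read 9.42, 11.75 and 9.40 against 7.01, 6.48 and 6.47 and fell by 3.54 ± 0.67, with a difference of -2.76 without that array (limma, adjusted p = 0.0025 and 0.021).

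Genes that male mouse liver expresses more than female liver, under pulsatile growth hormone, were lower. Of 20 tested, 0 rose and 7 fell, 19 were lower, and the median was -1.30 beside -0.01 over all genes. Corn oil replicate 2 was itself low for this list, at -0.98 where the other controls stood at 0.14 and 0.25, and without it 10 fell and the median was -1.73. The treated arrays stood at -1.67, -0.67 and -1.69, so that array overlapped the treated range. Nudt7, a peroxisomal coenzyme A hydrolase, read 14.05, 13.18 and 14.06 with corn oil and 10.85, 12.22 and 10.25 with cyproterone acetate. It fell by 2.66 ± 0.38 with no overlap (limma, adjusted p = 0.000204). Ugt2b38, a glucuronosyltransferase of a family with near-identical members, read 9.75, 7.02 and 9.74 against 5.84, 5.66 and 5.63. It fell by 3.13 ± 0.60, with a difference of -4.03 without corn oil replicate 2 (limma, adjusted p = 0.00293 and 9.1e-05). C8a, a complement component, fell by 1.30 ± 0.22 and Lifr, the leukemia inhibitory factor receptor, fell by 2.07 ± 0.42, both in all 6 fits.

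Elovl3, a fatty acid elongase, read 12.17, 8.75 and 12.01 with corn oil and 7.01, 8.39 and 7.996 with cyproterone acetate. Only the muscle-bearing control array was near the treated ones, and the difference of -3.18 ± 0.70 became -4.29 without it (limma, adjusted p = 0.00882 and 0.00017). With both other controls in turn left out, the Elovl3 call was lost (limma, adjusted p = 0.0693 without corn oil replicate 1 and 0.0613 without replicate 3), as it was without cyproterone acetate replicate 1 (0.0503). The male genes Hsd3b5 and Slco1a1, a steroid isomerase and an anion transporter, differed by -2.44 and -1.83 without passing (limma, adjusted p = 0.38 and 0.19), although Hsd3b5 passed without corn oil replicate 2 at -4.97 (limma, adjusted p = 0.0358), and Cyp2d9 by 0.07. Of 17 female-biased genes tested, 4 rose and 1 fell, with a median of 0.35, or 4 and 0 without corn oil replicate 2. The 4 were Cyp17a1, Fmo2, Cyp2b10 and Cyp2c39, all described above. Abcd2, a peroxisomal transporter, fell by 2.15 ± 0.59, and that call was lost without corn oil replicate 2 (limma, adjusted p = 0.147) and without 3 other arrays in turn, corn oil replicate 1 and cyproterone acetate replicates 1 and 2. In the growth hormone and IGF axis, 0 of 16 rose and 3 fell, with a median of -0.50, beside 2.18% higher and 3.31% lower over all genes. The 3 were Lifr, described above, Stat5a and Ghr. The Stat5a call was lost without any array but cyproterone acetate replicate 3 (limma, adjusted p of 0.0564 to 0.112). Ghr, the growth hormone receptor, fell by 0.79 ± 0.22, lost in 4 of 6 fits (all but those without corn oil replicate 2 or cyproterone acetate replicate 3), while Igf1 differed by 0.21 (limma, adjusted p = 0.46).

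**Figure D4:**
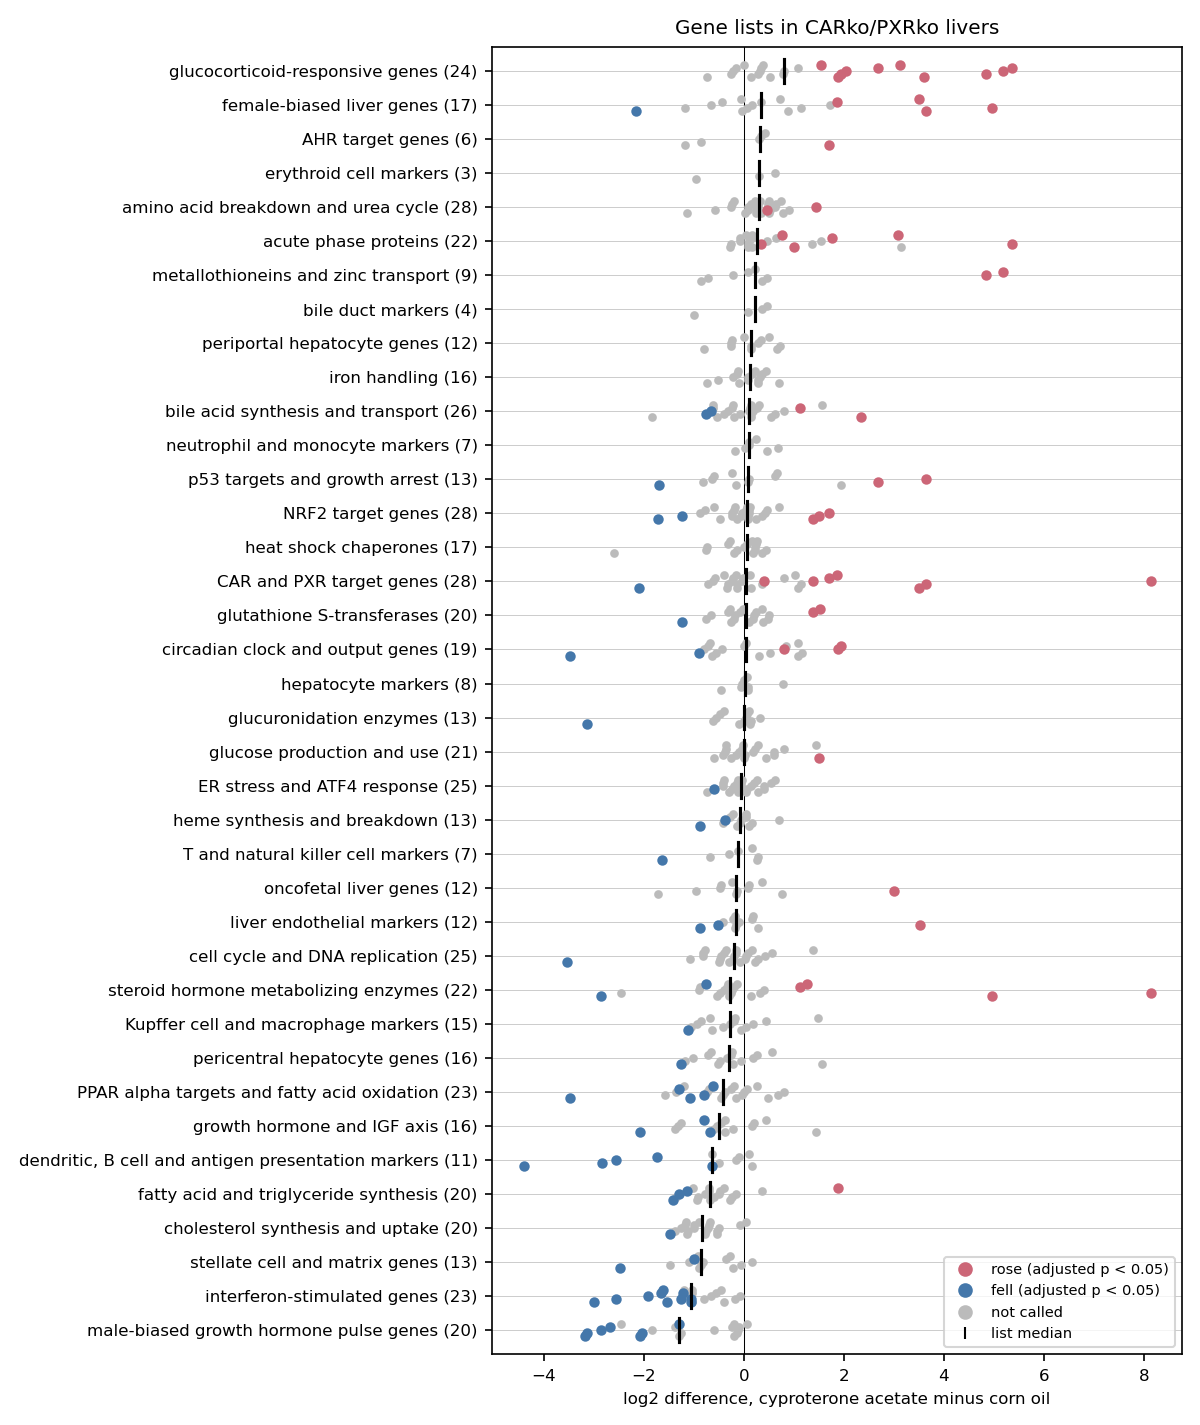
Log2 difference, cyproterone acetate minus corn oil (x axis), of each tested gene of the pathway, zone and cell type lists (y axis, tested members in brackets), sorted by list median. Red points rose, blue points fell, grey points were not called, and black bars are medians. Glucocorticoid-responsive genes have the highest median (0.80) and male-biased genes the lowest (-1.30) of the lists drawn.

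Genes of antigen presentation by MHC class II, the molecules with which dendritic cells, B cells and macrophages show peptides to T cells, were lower in every treated array. Of 11 dendritic cell, B cell and antigen presentation markers tested, 0 rose and 5 fell, with a median of -0.63, and 4 fell without corn oil replicate 2. H2-Aa, the class II alpha chain, read 10.28, 10.86 and 9.78 with corn oil and 5.81, 6.29 and 5.62 with cyproterone acetate. The treated arrays were near the array median while the controls were well above it, and H2-Aa fell by 4.40 ± 0.47 (limma, adjusted p = 3.95e-06). A second H2-Aa probe set gave a difference of -1.34, and the probe set used has a name that marks possible cross-hybridization. H2-Eb1, a class II beta chain, read 8.79, 9.32 and 8.18 against 6.34, 6.05 and 5.42 and fell by 2.83 ± 0.48 (limma, adjusted p = 0.00102). H2-Ab1, another class II beta chain, fell by 2.55 ± 0.51, and Cd74, the invariant chain that guides class II molecules through the cell, fell by 1.74 ± 0.32. These 4 calls held in all 6 fits with 1 array left out. Cd79b, a chain of the B cell receptor, fell by 0.63 and was lost in 5 of 6 fits, all but that without cyproterone acetate replicate 3, while Ciita, the activator of class II genes, differed by -0.16 and Ighm, an immunoglobulin chain, by -0.10.

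The windows of H2-Aa and H2-Eb1 are shown because class II genes are known to share promoter boxes, of which the Y box, an inverted CCAAT box, is marked here in capitals as CTGATTGG. Both are 5′ to 3′ on the strand of the gene, from RefSeq on GRCm38.p6, with 250 bases before and 50 after the transcript start.
H2-Aa, chr17:34287774-34288073 (-): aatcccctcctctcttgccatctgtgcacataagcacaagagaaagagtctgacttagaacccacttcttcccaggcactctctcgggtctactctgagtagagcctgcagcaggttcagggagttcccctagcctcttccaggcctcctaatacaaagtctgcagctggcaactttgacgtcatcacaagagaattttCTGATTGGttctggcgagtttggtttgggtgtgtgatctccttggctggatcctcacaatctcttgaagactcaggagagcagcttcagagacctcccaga
H2-Eb1, chr17:34305617-34305916 (+): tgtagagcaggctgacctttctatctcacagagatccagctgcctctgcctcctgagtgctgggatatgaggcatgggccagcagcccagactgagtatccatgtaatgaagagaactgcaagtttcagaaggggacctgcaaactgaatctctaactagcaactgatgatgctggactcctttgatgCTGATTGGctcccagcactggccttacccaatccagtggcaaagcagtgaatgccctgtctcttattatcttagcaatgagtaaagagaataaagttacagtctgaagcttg
Each window holds 1 match on the strand shown. Over both strands, the same 8 letters were present in 6.09% of tested genes with a window and in 5.87% of those that fell.

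Interferon-stimulated genes, the antiviral genes that interferon switches on, were lower throughout. Of 23 tested, all 23 had a lower mean, 10 fell and 0 rose, with a median of -1.06, and 7 fell without corn oil replicate 2. On the list median the corn oil arrays stood at -0.07, 0.07 and -0.40 and the cyproterone acetate arrays at -0.92, -0.80 and -1.39, with no overlap. Rtp4, a receptor-transporting protein, read 9.64, 8.94 and 9.08 with corn oil and 7.52, 7.82 and 7.37 with cyproterone acetate, and fell by 1.65 ± 0.29 (limma, adjusted p = 0.00116). Usp18, which removes the ubiquitin-like modifier ISG15, read 8.49, 8.32 and 7.60 against 6.18, 6.70 and 6.69, and fell by 1.61 ± 0.29 (limma, adjusted p = 0.00165). Gbp6, a guanylate-binding protein of a family with similar members, read 8.20, 8.97 and 8.07 against 5.66, 5.68 and 4.94, and fell by 2.99 ± 0.55 (limma, adjusted p = 0.00182). Each had groups that did not overlap. Irf7, the transcription factor that amplifies interferon responses, fell by 1.22 ± 0.24, and Ifit1 and Ifit2, which bind viral RNA, had differences of -1.54 ± 0.30 and -1.26 ± 0.22. All of these held in the 6 fits with 1 array left out. The chemokine gene Cxcl9 fell by 2.54 ± 0.64, lost without corn oil replicate 1 (0.0589), corn oil replicate 2 (0.0965) or cyproterone acetate replicate 3 (0.0687), where the brackets give limma adjusted p.

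The core of the interferon-stimulated response element, read as GAAA, any 2 bases and GAAA again on either strand, was present in 4 of the 7 interferon-stimulated genes that fell and have a window (57.1%), in 8.5% of the 341 genes that fell, in 3.98% of the 226 that rose and in 3.57% of tested genes. Since these genes are known by that element, the share in the list follows from what the list is. One match from each of the 4, chosen for the match, is shown in capitals with 20 bases on each side, 5′ to 3′ on the strand of the gene, from RefSeq on GRCm38.p6.
Ifit1, chr19:34640765-34640814 (+): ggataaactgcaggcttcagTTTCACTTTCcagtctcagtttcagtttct
Ifit3, chr19:34583353-34583402 (+): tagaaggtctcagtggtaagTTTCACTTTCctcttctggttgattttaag
Gbp3, chr3:142559979-142560028 (+): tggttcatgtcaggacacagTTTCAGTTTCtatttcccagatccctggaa
Oas1a, chr5:120907516-120907565 (-): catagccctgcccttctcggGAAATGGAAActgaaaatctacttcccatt
Gbp3 fell by 1.91 ± 0.40, a call that held, like that of Ifit1, in all 6 fits with 1 array left out. Ifit3 fell by 1.06 ± 0.31, and its call was lost whichever of the 6 arrays was left out, with adjusted p of 0.0684 to 0.157. Oas1a, an antiviral oligoadenylate synthetase, fell by 1.06 ± 0.27, with its highest reading, 9.40, on corn oil replicate 2 and a difference of -0.62 without that array (limma, adjusted p = 0.143), and it was also lost without cyproterone acetate replicate 2 (0.062) or 3 (0.0588).

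Markers of the cells that could carry these transcripts gave mixed differences. For 12 measured dendritic cell, B cell and antigen presentation genes, the log2 of the summed signal lay between 11.13 and 12.02 in corn oil arrays and between 9.49 and 9.83 in treated ones. That list holds the class II genes and Cd74 themselves, so its sum is no separate measure of the cells. For 15 Kupffer cell and macrophage markers, the summed signal was 13.49 to 13.75 and 12.72 to 13.60, so the groups overlapped. The macrophage list had 0 rises and 1 fall of 15 tested and a median of -0.28. Csf1r, the receptor for macrophage growth factor, fell by 1.11 ± 0.27, and was lost without corn oil replicate 1 (limma, adjusted p = 0.0767) or cyproterone acetate replicate 2 (0.0973). Resident Kupffer cell markers differed by -0.41 for Clec4f, -0.67 for Timd4 and 0.05 for Vsig4, and the complement genes C1qa, C1qb and C1qc by -0.19, 0.18 and -0.17, none of them called. Ptprc, the pan-leukocyte marker CD45, read 8.24, 8.60 and 8.05 with corn oil and 7.17, 6.57 and 6.24 with cyproterone acetate, and fell by 1.64 ± 0.29 with no overlap (limma, adjusted p = 0.00129). The T cell genes Cd3d, Cd3e, Cd4 and Cd8a differed by -0.30, -0.10, 0.26 and 0.28, not called, and 0 of 7 neutrophil and monocyte markers was called. The part of these cells in the falls of class II and interferon-stimulated genes was not tested.

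Among the cells of the liver wall and scaffold, most markers were not called. Lyve1, a hyaluronan receptor of sinusoidal endothelium, was the exception upward, at 6.95, 7.61 and 5.87 with corn oil and 10.58, 9.35 and 11.06 with cyproterone acetate. The groups were well apart, and Lyve1 rose by 3.53 ± 0.63 in all 6 fits (limma, adjusted p = 0.00151). The other endothelial markers did not follow it: 2 of 12 fell, Cdh5 (-0.87) and Kdr (-0.52), and Stab1, Stab2 and Pecam1 differed by -0.09, -0.17 and 0.20. Without corn oil replicate 2 neither Cdh5 nor Kdr was called (limma, adjusted p = 0.0731 and 0.0675). Cdh5 was also lost without corn oil replicate 1 or cyproterone acetate replicate 2 (0.0545 and 0.0875), and Kdr whichever array was left out (0.0507 to 0.161). Of 13 stellate cell and matrix genes, 2 fell, Col3a1 (-2.48) and Reln (-0.99), and without corn oil replicate 2, the array with the muscle transcripts, 0 were called (limma, adjusted p = 0.205 and 0.0547). The Col3a1 call was also lost without corn oil replicate 1 or cyproterone acetate replicate 2 or 3 (0.0552, 0.0822 and 0.12), and the Reln call without any array but cyproterone acetate replicate 3 (0.0547 to 0.132). Bile duct markers (0 of 4) and erythroid markers (0 of 3) held no called gene with all 6 arrays. The erythroid heme synthesis gene Alas2 passed without corn oil replicate 2, at -1.28 (limma, adjusted p = 0.049).

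Lipid lists had low medians with few calls. Of 20 genes of cholesterol synthesis and uptake, 19 had a lower mean and the median was -0.84, but only 1 fell. On the list median the cyproterone acetate arrays stood at 0.02, 0.32 and -2.53 and the corn oil arrays at 0.44, 0.15 and -0.18, so 2 of 3 treated arrays lay within the control range and replicate 3 far below it. Without that array the median difference was 0.09. Sc5d, a sterol desaturase, read 13.33, 13.47 and 13.03 with corn oil and 12.03, 12.83 and 10.57 with cyproterone acetate, a fall of 1.46 ± 0.37, and was lost without cyproterone acetate replicate 3 (limma, adjusted p = 0.096) and without corn oil replicate 1 or 2 (0.0756 and 0.0754). Fatty acid and triglyceride synthesis had 1 rise, Lpin1, and 3 falls among 20 genes, with a median of -0.68. Fads1, Fads2 and Elovl5, which make polyunsaturated fatty acids, fell, with differences of -1.29, -1.41 and -1.14, and none of them was called without corn oil replicate 2 (limma, adjusted p = 0.0784, 0.214 and 0.144). Elovl5 was also lost without corn oil replicate 1 or cyproterone acetate replicate 1 (0.0641 and 0.107), and Fads2 without any array but corn oil replicate 3 (0.0645 to 0.214). Of 23 PPAR alpha targets and fatty acid oxidation genes, 0 rose and 5 fell, with a median of -0.41, and 3 fell without corn oil replicate 2. On this list cyproterone acetate replicate 3 was the highest treated array, at 0.52 against -0.40 and -0.23. Vnn1, pantetheinase, a sensitive PPAR alpha target, read 10.93, 9.24 and 11.12 against 6.17, 8.18 and 6.55 and fell by 3.46 ± 0.77, a call lost without corn oil replicate 1 (limma, adjusted p = 0.0536) or 3 (0.0507). Acaa1b, a peroxisomal thiolase, fell by 1.29 ± 0.28, lost without cyproterone acetate replicate 1 (0.0526).

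Clock genes moved both ways. Of 19 tested, 3 rose and 2 fell, with a median of 0.04, and without corn oil replicate 2, 2 rose and 2 fell, with a median of -0.22. Dbp, a clock output transcription factor, read 11.84, 10.87 and 11.93 with corn oil and 6.52, 9.13 and 8.56 with cyproterone acetate, and fell by 3.47 ± 0.74 (limma, adjusted p = 0.00626), just lost without cyproterone acetate replicate 1 (0.0512). Nr1d1, the repressor REV-ERB alpha, fell by 0.90 ± 0.19, lost without corn oil replicate 1 (0.0552), and Clock rose by 0.80 ± 0.19, lost without corn oil replicate 3 (0.0732). The time of day of sampling is not given in the sources used here. Among 13 p53 targets and growth arrest genes, Cdkn1a and Gadd45b rose and Gadd45a, a related stress gene, read 8.35, 8.45 and 8.50 against 6.76, 7.37 and 6.10 and fell by 1.69 ± 0.34 (limma, adjusted p = 0.00386). Ccnd1 was the 1 called member of 25 cell cycle and DNA replication genes, whose median was -0.19.

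Detoxification lists outside CAR and PXR held calls in both directions, to be read beside the 5.49% called over all genes. Of 28 NRF2 target genes, 3 rose and 2 fell, with a median of 0.06, and 3 rose and 1 fell without corn oil replicate 2. Cbr1, a carbonyl reductase, read 11.16, 11.09 and 10.80 with corn oil and 12.64, 12.85 and 12.07 with cyproterone acetate, a rise of 1.505 ± 0.20 with no overlap (limma, adjusted p = 7.3e-05). Nqo1, a quinone reductase, rose by 1.70 ± 0.36, just lost without corn oil replicate 3 (0.0505), and was the single called gene of 6 AHR targets. Osgin1, an oxidative stress-induced growth inhibitor, fell by 1.70 ± 0.36 (limma, adjusted p = 0.00606). Of 20 glutathione S-transferases, 2 rose and 1 fell, and without corn oil replicate 2, 1 rose and 0 fell. In bile acid synthesis and transport 2 of 26 rose and 2 fell, with a median of 0.11, and 1 rose and 2 fell without corn oil replicate 2, with a median of -0.10. The list was led by Cyp39a1, an oxysterol hydroxylase, which rose by 2.34 ± 0.46 (limma, adjusted p = 0.00352). Cyp7a1, the rate-limiting enzyme of bile acid synthesis, differed by 1.56 without passing (limma, adjusted p = 0.18). Alad, the second enzyme of heme synthesis, fell by 0.87 ± 0.16 (limma, adjusted p = 0.0019), and Slc37a4, which carries glucose 6-phosphate into the endoplasmic reticulum, rose by 1.501 ± 0.25 (limma, adjusted p = 0.000815). The calls of Cbr1, Osgin1, Cyp39a1, Alad and Slc37a4 held in all 6 fits with 1 array left out. No gene was called among 16 iron handling genes, 17 heat shock chaperones and 12 periportal genes, and 1 fell in each of the lists of 13 glucuronidation enzymes (Ugt2b38), 25 ER stress genes (Xbp1, by 0.59) and 16 pericentral genes (Lect2, by 1.25). The Xbp1 call was lost without corn oil replicate 1 or 3 or cyproterone acetate replicate 2 (0.0557, 0.0897 and 0.0827), and the Lect2 call without any array but cyproterone acetate replicate 2 (0.0696 to 0.125). In amino acid breakdown and the urea cycle 2 of 28 rose, Asl of the urea cycle by 1.44 and Hpd of tyrosine breakdown by 0.47. Of 12 oncofetal genes 1 rose, the trefoil factor Tff3, by 3.00. Asl was lost without cyproterone acetate replicate 3 (0.0566), Hpd without corn oil replicate 1 or 2 or cyproterone acetate replicate 3 (0.0614, 0.081 and 0.0688), and Tff3 without corn oil replicate 1 or 3 or cyproterone acetate replicate 1 or 3 (0.0527 to 0.17). With corn oil replicate 2 left out, the medians of the glucuronidation and oncofetal lists turned from 0.01 to -0.24 and from -0.14 to 0.33, and the called pericentral genes were Rnf43 and Gulo, 2 falls, in place of Lect2. Genes of adrenal cortex, squamous epithelium and exocrine pancreas held no call, and Elovl3 was the 1 called gene of 7 brown fat genes.

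The effect without CAR and PXR was then set against the effect of the same steroid in mice with receptors, each against its own corn oil arrays. In wild type mice 143 genes were called (1.12%, with 0.485% higher and 0.633% lower) and in hCAR/hPXR mice 566 (4.42%, with 1.52% higher and 2.9% lower), with the labelled duration of 6 days. Of the genes called here, 89 were called in the same direction in wild type, which is 12.7% of the 702 and 62.2% of the 143. In hCAR/hPXR mice the number was 240, or 34.2% of the 702 and 42.4% of the 566. Sult1e1 rose by 6.08 in wild type and 7.59 in hCAR/hPXR mice, Cyp17a1 by 3.97 and 5.28, and Fkbp5 by 2.04 and 3.12. The effects on Serpina6 were -2.90 and -4.00, and those on H2-Aa -2.41 and -4.99. For these 5 genes the effect in CARko/PXRko mice, given above, had the same sign as in both other genotypes.

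The difference of the effects was tested directly and passed for few genes. Against wild type, 9 of 12795 genes were called (0.0703%), 2 higher (0.0156%) and 7 lower (0.0547%), with 967 at an unadjusted p under 0.05. Ces2a, a carboxylesterase that CAR and PXR induce, rose by 2.08 ± 0.20 in wild type and differed by -0.34 ± 0.20 in CARko/PXRko mice, a difference of effects of -2.42 ± 0.28 (limma, adjusted p = 5.14e-05). Cyp2c55 rose by 4.00 ± 0.51 in wild type and fell here, a difference of effects of -6.08 ± 0.72 (limma, adjusted p = 5.82e-05). Nebl, which encodes the actin-binding protein nebulette, rose by 3.27 in wild type and differed by 0.22 here, a difference of effects of -3.04 ± 0.31 (limma, adjusted p = 9.48e-06). Cyp3a44 showed 2.15 against 0.35 and Hsd17b6 1.75 against -2.85, and the differences of effects were -1.80 and -4.60 (limma, adjusted p = 0.0496 and 0.0325). Ddit4 and Bdh1 moved further here than in wild type, where they changed by 1.04 and -1.13, with differences of effects of 2.57 ± 0.35 and -2.41 ± 0.37 (limma, adjusted p = 0.000598 and 0.00246). The other two were Med17, a Mediator subunit (1.31, adjusted p = 0.0496), and Nfs1, a cysteine desulfurase (-0.60, adjusted p = 0.0486). Cyp2b10 rose by 7.28 ± 0.77 in wild type, and its difference of effects of -3.78 ± 1.09 did not pass (limma, adjusted p = 0.369), nor did that of Sult1e1, 2.05 (limma, adjusted p = 0.655). The count was 5 without corn oil replicate 1 or 2 or cyproterone acetate replicate 1 or 3 of the wild type, and 14 without cyproterone acetate replicate 3 of the knockout.

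**Figure D5:**
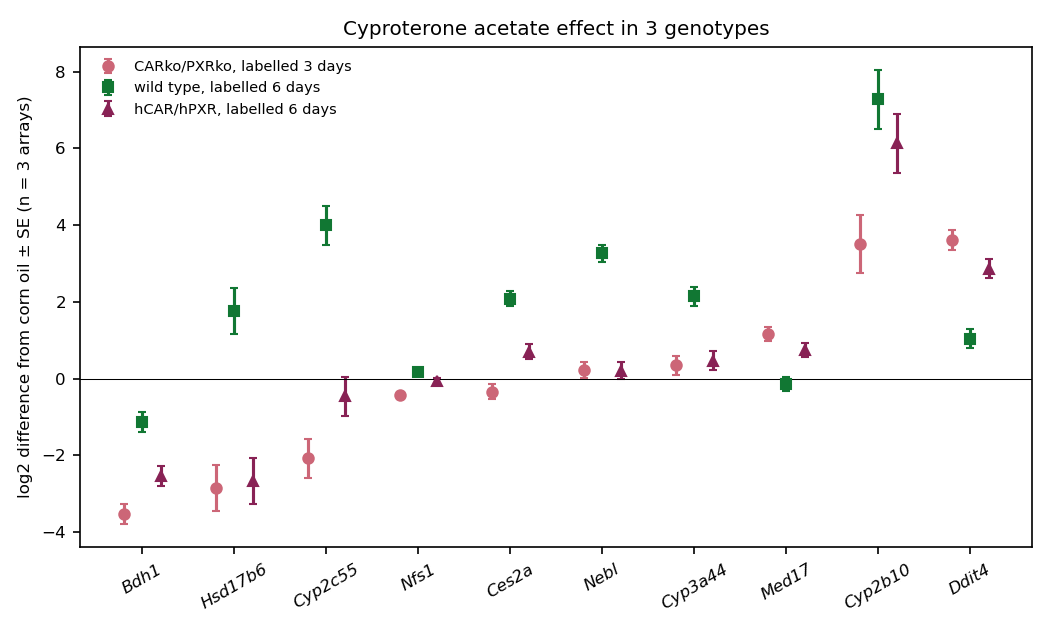
Cyproterone acetate effect (log2 difference from corn oil ± SE, y axis) on the 9 genes whose effect differed between CARko/PXRko and wild type mice, and on Cyp2b10, whose did not pass. Circles are CARko/PXRko, squares wild type and triangles hCAR/hPXR mice, each from 3 arrays per group, and the cyproterone acetate arrays of wild type and hCAR/hPXR mice are labelled 6 days. Cyp2c55 is at -2.08, 4.00 and -0.46 in that order of genotypes.

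Against hCAR/hPXR mice, 0 genes were called by limma for the difference of effects, with 839 at an unadjusted p under 0.05. The count was 1 without cyproterone acetate replicate 2 or 3 of the knockout and 4 without cyproterone acetate replicate 2 of hCAR/hPXR. Cyp2b10 rose by 6.13 in hCAR/hPXR mice, with a difference of effects of -2.62 (limma, adjusted p = 0.742). Kupffer cell and macrophage markers had 11 falls of 15 and a median of -1.27 in hCAR/hPXR mice, where the CARko/PXRko livers had 1 and -0.28, and no member passed the test of the difference. The smallest adjusted p was that of Pld4, a phospholipase D family exonuclease of immune cells, which differed by -0.10 here and by -1.15 in hCAR/hPXR mice, a difference of effects of 1.05 (limma, adjusted p = 0.095).

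DCB, given to mice of the same genotype for the same labelled time, shares its corn oil arrays with the comparison above, so values are given side by side. DCB against corn oil called 15 genes (0.117%), all higher. The direct comparison of cyproterone acetate with DCB livers takes no control array into its difference. Its SE and p do rest in part on control arrays, through the spread shared over all groups. A fit of these 2 groups alone, which holds no control array, called 7 genes, and a fit with array weights called 23. The main fit called 972 genes (7.6%), 419 higher (3.27%) and 553 lower (4.32%). That balance turned with the processing: quantile normalization applied again gave 595 higher and 393 lower, and averaging each gene's probe sets gave 372 higher and 351 lower. Muscle transcripts were also on DCB replicates 2 and 3, with muscle medians of 1.81 and 5.80, and without the arrays that carried them the count was 154, resting on a single DCB array that is assumed to vary like the other groups. Without DCB replicate 3 alone the count was 471, and without cyproterone acetate replicates 1, 2 or 3 it was 439, 592 and 1370. Sult1e1 was higher with cyproterone acetate than with DCB by 7.66 ± 0.69, Ddit4 by 2.64 ± 0.25, Amy1 by 2.11 ± 0.18 and Fkbp5 by 2.41 ± 0.29, and their DCB effects were 0.48, 0.97, -0.74 and 0.72. Serpina6, H2-Aa and Bdh1 were lower by differences of -3.22, -3.88 and -3.15, with DCB effects of -0.93, -0.52 and -0.39. Gadd45b (2.81), Abcd4, a lysosomal transporter needed for vitamin B12 use (1.49), F9, coagulation factor IX (1.36), and Setmar, a histone methyltransferase and transposase fusion (1.14), were also higher than with DCB. Gatm, an enzyme of creatine synthesis (-1.99), Itih5, an inter-alpha-trypsin inhibitor chain (-2.35), Ccnd3, cyclin D3 (-0.90), and Fez2 (-0.88) were lower. Cbr3, a carbonyl reductase and NRF2 target, ran the other way, with a difference of -3.86 ± 0.38 (limma, adjusted p = 1.3e-06), a DCB effect of 4.33 and a cyproterone acetate effect of 0.47. Among NRF2 targets 14 of 28 were lower with cyproterone acetate than with DCB and 0 higher. The number lower was 13 to 15 under the other filters, normalizations and probe set rule. It was 1 with array weights and 1 in the fit of these 2 groups alone.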

How the data were processed

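Affymetrix arrays of male mouse liver RNA were used, 30 in all, with 10 groups of 3. The deposited values are log2 RMA signals, made by the authors with RMA per the submitters' processing notes. No version or setting of it is given in the sources used here, nor any scan or extraction batch. Scanner files were not used.

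Of 45037 probe sets, 34945 were annotated to 1 gene, 932 to several and 9160 to none. The 18193 genes with a probe set of their own were each represented by the one with the highest mean over all arrays, and 12795 were tested, those above the array median on at least 3 arrays. The platform annotation named the genes, and the gene IDs of 34741 probe sets were found in RefSeq (GRCm38.p6), with 0 symbols updated. One limma model (version 3.58.1, R 4.3.3) gave each group its own mean over the 30 arrays, with moderated two-sided tests by eBayes on 20 residual and 3.62 prior degrees of freedom. Calls were at a Benjamini-Hochberg adjusted p under 0.05 over all genes tested. The script was tested on simulated data.

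The comparison, the 43 gene lists (732 of 820 memberships measured, 676 tested, 1 through an older symbol) and the rule for naming genes were chosen with earlier results of these data known. The rule took the 12 largest rises and falls with groups that do not overlap (other-tissue genes left out), Nr1i3, Nr1i2, Cyp2b10 and Cyp3a11, from each list 4 members at most by smallest p, and up to 8 called genes each way for the other comparisons. Further members named were chosen after their values were seen. An array was taken to carry muscle transcripts above a median of 1.5 log2 units.

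Promoter windows are RefSeq's, and 139 of 185 named genes and 10290 tested genes were matched by symbol. A gene with several windows counts as matched when any holds the motif. Alternatives were the filter, the normalization, the probe set rule, eBayes, array weights, the replicate block, the arrays in the fit, a 2-fold minimum, and arrays left out.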

Additional observations from a re-analysis of the deposited data

Results flagged for a closer look

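The effect of cyproterone acetate differed between CARko/PXRko and wild type mice for 9 genes by the limma test of the difference. In log2 units, as the knockout effect minus the wild type effect, these were Nebl (-3.04), Ces2a (-2.42), Cyp2c55 (-6.08), Ddit4 (2.57), Bdh1 (-2.41), Hsd17b6 (-4.6), Nfs1 (-0.6), Med17 (1.31) and Cyp3a44 (-1.8). Genotype and labelled duration (3 against 6 days) cannot be told apart in them. Probe sets outside the comparisons also held signal. Of 3084 probe sets with no annotated gene that passed the same filter, 53 were called (1.72%), 25 higher and 28 lower. Of 616 probe sets annotated to several genes, 36 were called (5.84%), 21 higher and 15 lower.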

How the results depend on the processing

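No named gene that was called changed sign under any alternative run. Of 686 list medians under alternatives, 52, in 21 lists, changed sign or reached 0 at 2 decimals. For cyproterone acetate against corn oil (702 genes), leaving out 1 array gave 282 to 929 calls. Array weights gave 290 calls, the 2 groups alone 136 and an added 2-fold minimum 17, while no filter gave 604 and averaging the probe sets of each gene 579. Quantile normalization applied again gave 674, with 49.4% of them higher against 39.7%, and moved the median of all genes from -0.01 to 0.04. For the difference from the wild type effect (9 genes), leaving out 1 array gave 5 to 14 and eBayes with trend and robust 5. For the difference from the hCAR/hPXR effect (0 genes), leaving out 1 array gave 0 to 4, the mean of probe sets 1 and leaving out the arrays with muscle transcripts 1. For cyproterone acetate against DCB (972 genes), leaving out 1 array gave 439 to 1370, array weights 23, leaving out the arrays with muscle transcripts 154 and the groups alone 7. Its share of higher calls was 43.1%, and 60.2% with quantile normalization applied again. The causes of these shifts were not tested, and some of the fits had fewer arrays. For a part of the named genes, the values under the alternatives were compared with the main run, and 417 were the same and 25 weaker. Of 108 list and named genes called, 60 were called in all fits that left out 1 array. Some named genes gained a call, as Alas2, Rnf43 and Gulo did without corn oil replicate 2. Of the list medians, 41 moved by more than the spread between replicates.

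Same-numbered arrays did not deviate together (correlations of -0.041, -0.0403 and 0.0427), so the numbers are not taken as pairs. With the replicate number as a block the counts were 711, 8, 0 and 1031, in the order above. Arrays carry no depth, and signals near the array median or the maximum of about 15 understate differences.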
